A study of Mus musculus with 70 samples.

Results

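The nuclear genes for subunits of the oxidative phosphorylation complexes were followed through mouse livers and sorted liver macrophages after 24 weeks on a control or a NASH (nonalcoholic steatohepatitis) diet. The 85 members were all symbols of the families Nduf (A, B, C, S and V subunits), Sdh (A to D), Uqcr, Cox4 to Cox8 and Atp5 in the count tables, out of 25089 symbols. The Nduf symbols had to carry a number straight after that letter, so that Ndufab1 is not among them. By symbol, 38 belong to complex I, 4 to complex II, 8 to complex III, 18 to complex IV and 17 to complex V. The male liver table holds 83 of them (Atp5mpl and Ndufb4c are not in it) and the tables of female liver and of macrophages hold all 85. Symbols ending in -ps and the Ndufaf assembly factors were to be left out, and none matched. GENCODE vM21 classes 1 of the 85, Ndufb4c, as a processed pseudogene; it was kept because the rule goes by symbol, and it was too low to be tested in any table.

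Poly(A) RNA was sequenced in 70 libraries that make 16 groups: total liver lysate, or liver resident macrophages gated as F4/80 high and CD11b low, from males or females, of either genotype, on either diet. Both genotypes carry the myeloid driver: the mice called WT are labelled Lyz2.Cre+/+, and the mice called KI are labelled OpnKI Mye, by name a knock-in of osteopontin (gene Spp1) in the cells in which Lyz2, a gene of macrophages and neutrophils, drives Cre. Liver groups have 4 libraries each, and macrophage groups have 4 on the control diet and 5 (males) or 6 (females) on the NASH diet. By its title the series is about what macrophage osteopontin does in NASH, so the comparisons are diet within genotype, KI against WT within diet, and the differences between these. The labels give neither the age of the mice nor whether libraries of a group are separate animals, so that p-values measure only the spread between these libraries.

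Replicates 3 and 4 of male liver WT control differed by less than counting noise and were counted as 1 sample (their mean), which leaves 69 libraries with total counts of 14321776 to 29966174. In 2 of the 69, this averaged male liver WT control library and male macrophage WT control replicate 4, the sex genes contradict the male label. They stayed in their labelled groups, and the counts they move are given without them. Spp1 in male macrophages on the control diet was 0.268 to 0.516 CPM (counts scaled to the library size) in WT and 7.12 to 11.3 in KI, and in females 0 to 0.199 and 1.43 to 2.47. On the NASH diet its macrophage levels overlapped, and in male liver on that diet Spp1 was lower in KI (22.2 to 65.8 CPM) than in WT (133 to 698). Hepatocyte markers summed to at least 93510 CPM in every liver group and to at most 3179 in the macrophage groups of males, where resident Kupffer cell markers summed to 19040 to 48950.

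Oxidative phosphorylation moves electrons from NADH (complex I) and succinate (complex II) through complex III to oxygen at complex IV, and the proton gradient made on the way drives ATP synthesis at complex V. Most subunits are encoded in the nucleus and imported, while a small core set is encoded by mitochondrial DNA; those mitochondrial genes are not analysed here. Hepatocytes are rich in mitochondria, and respiratory capacity in fatty liver disease has been a subject of much study. The subunit genes are short housekeeping genes whose promoters often carry sites for NRF1, for ETS factors such as GABP, or for YY1.

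Promoters from RefSeq (GRCm38.p6, 250 bases before to 50 after each start) were found for 68 of the 85 members. The NRF1 letters GCGCATGC occurred in the promoters of 10 of the 68 (14.7%) against 3.05% of 27025 genes, the ETS letters CCGGAAG in 16 (23.5%) against 9.93%, and the YY1 letters AAGATGGC in 10 (14.7%) against 3.19%, on either strand. At least 1 of the 3 was present in 30 of 68 members (44.1%) and in 14.9% of all genes. A match is only a string of letters, and 38 members had none in this window. The stretches below, 120 bases upstream of both the RefSeq and the GENCODE start, belong to 3 genes named in the male liver results below. They were picked after those results were seen, to show an NRF1 match, an ETS match and no match. Capitals mark the NRF1 letters in Ndufa6 and the ETS letters in Sdhd, and Uqcrfs1 had no match.
Ndufa6, chr15:82354323-82354442, minus strand: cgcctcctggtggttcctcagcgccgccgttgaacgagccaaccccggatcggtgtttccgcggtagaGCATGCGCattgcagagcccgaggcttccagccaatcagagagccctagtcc
Sdhd, chr9:50603850-50603969, minus strand: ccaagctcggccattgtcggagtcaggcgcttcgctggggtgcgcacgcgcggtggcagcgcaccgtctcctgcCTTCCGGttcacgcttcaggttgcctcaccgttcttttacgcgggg
Uqcrfs1, chr13:30545363-30545482, minus strand: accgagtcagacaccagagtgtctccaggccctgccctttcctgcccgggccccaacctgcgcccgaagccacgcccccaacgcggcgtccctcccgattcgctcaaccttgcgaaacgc

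The members took a larger share of the counts in liver than in macrophages, whose tables were made separately. All members together took 1.15% ± 0.07 of the counts in male liver WT control (SD, n = 3) and 0.988% ± 0.082 in female liver WT control (n = 4), against 0.482% ± 0.039 in male and 0.548% ± 0.038 in female macrophages WT control (n = 4 each). Per kilobase of exon, the highest members in male liver WT control were Atp5a1 (400.0 CPM per kb) and Atp5b (315), the alpha and beta subunits of the catalytic head of ATP synthase, with Cox6a1 (381) and Cox8a (296) of complex IV between and after them. In macrophages the same 4 genes led with Cox6b1 and Cox5a: Cox8a stood first at 160.3 CPM per kb in males and 180.2 in females. These orders depend on the length used, the union of annotated exons: 4237 bases for Atp5b, 3135 for Atp5a1 and 619 for Cox8a. Such unions can be longer than the transcripts present. Not divided by length, Atp5b and Atp5a1 were above Cox8a in every male macrophage library. Of the paired complex IV isoforms, the common forms were above the lung, muscle or testis forms in every group: in male liver WT control Cox4i1 was at 248 and Cox4i2 at 0.143 CPM per kb, Cox6a1 at 381 and Cox6a2 at 0.0281, and Cox7a2 at 81.2 and Cox7a1 at 2.62.

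After the filter on low counts, 76 members were tested in livers of males and 77 in those of females, with 78 and 77 in their macrophages. The untested ones were mainly these isoforms (Cox4i2, Cox7b2, Cox8b and Cox8c in every table). Ndufs5, a subunit every mitochondrion needs, was also untested: it was listed at 0 in every library of female liver and of macrophages and in all but 1 of male liver. Atp5l, the g subunit of ATP synthase, was at 102 CPM in male liver WT control and at 1.2 CPM in female liver WT control, a gap over 8-fold that 1 of 73 members and 50 of 7925 genes (0.631%) showed. Below that cut, the next widest gaps among the members were those of Atp5g2 (99.2 CPM in male and 17.95 in female liver WT control) and Ndufb4 (15.6 and 3.6). Levels of these symbols are therefore not compared between tables, which were made separately.

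In male liver on the NASH diet the subunit genes were lower in KI than in WT across the complexes. Of the 76 tested members, 32 fell and none rose (edgeR's quasi-likelihood test, adjusted p below 0.05), where 17.4% of all genes tested fell. The log2 fold change was negative in 74 of 76, with a median of -0.29 against -0.02 over all genes. In 33 of the 76 every KI library was below every WT library, as in 16.4% of all genes. By complex, 14 of 36 members of complex I fell, 1 of 4 of complex II, 3 of 8 of complex III, 9 of 12 of complex IV and 5 of 16 of complex V. Whether complexes, or large and small subunits, differ was not tested. The members' fold changes also went with exonic length, as given below. The count was 14 without WT NASH replicate 2, 21 without WT NASH replicate 3, and 16, 15 and 19 without KI NASH replicates 1, 2 and 3, with none higher. In bulk liver, fewer cells of a type and less RNA per cell cannot be told apart.

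**Figure D1:**
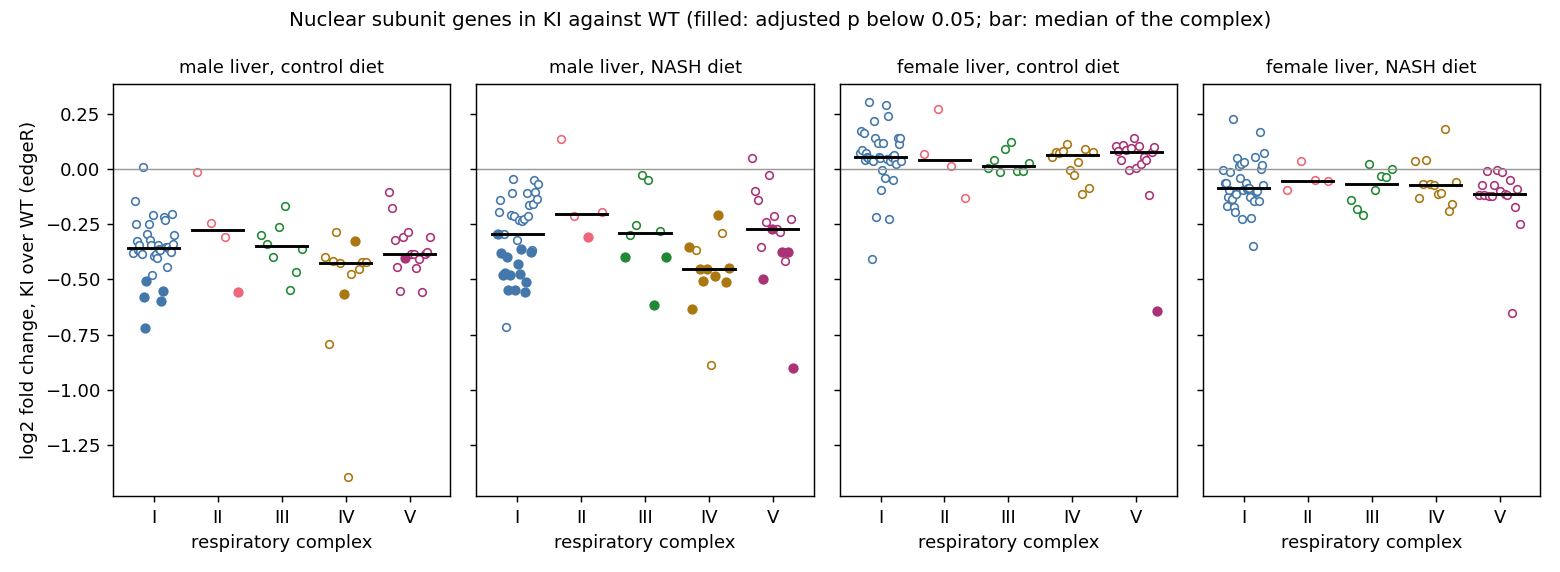
Log2 fold change of KI over WT (y axis) for each tested member, by respiratory complex (x axis), in male and female liver on each diet; filled points passed the adjusted p, and bars are medians of a complex. In males nearly all points lie below 0, with medians of -0.20 to -0.45 on the NASH diet, and in females the medians lie between -0.12 and 0.08.

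Complex I is an L-shaped enzyme whose nuclear core subunits carry the flavin and the iron-sulphur clusters, surrounded by accessory subunits. In male KI liver on the NASH diet, the 14 members that fell were all among the 28 tested subunits outside the core, and none of the 7 core subunits fell. The remaining tested member, the hypoxia isoform Ndufa4l2, was at -0.71 ± 0.28 (adjusted p = 0.0603). The core subunits had log2 fold changes of -0.21 to -0.05, among them Ndufs1 at -0.11 ± 0.10 (SE, adjusted p = 0.395) and the flavin-binding Ndufv1 at -0.11 ± 0.11 (adjusted p = 0.472). Whether core and accessory subunits differ was not tested, and their exonic lengths differ too, with medians of 2178 and 1316 bases. With the length offset described below, Ndufb2 and Ndufb7 alone of the 14 were called. Of the core subunits, Ndufs1 was then called lower (-0.33) and Ndufs8 higher (0.27).

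Ndufa6 (chr15, 82350140 to 82354322, mm10) and Ndufc2 (chr7, 97400003 to 97407802) are accessory subunits of the matrix and membrane arms. Ndufa6 was at 106, 134, 108 and 119 CPM in the 4 WT NASH libraries and at 93.0, 71.4, 76.6 and 78.5 in the 4 KI NASH libraries. The groups did not overlap, and Ndufa6 fell by 0.55 ± 0.12 on the log2 scale (adjusted p = 0.00331). Ndufc2 was at 43.97, 46.0, 39.1 and 39.8 CPM in WT NASH and at 29.9, 26.4, 29.2 and 33.0 in KI NASH, again without overlap. It had the smallest p of the complex, with a fall of 0.51 ± 0.10 (adjusted p = 0.00128). Ndufc1 fell most among the members of the complex that were called, by 0.56 ± 0.14 (adjusted p = 0.00866). Ndufa4, named for complex I but placed in complex IV by later structures, fell by 0.47 ± 0.14 (adjusted p = 0.0152). The remaining 10 (Ndufa2, Ndufa5, Ndufa7, Ndufa10, Ndufa13, Ndufb2, Ndufb4, Ndufb6, Ndufb7 and Ndufs4) fell by 0.30 to 0.55.

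Complex II, succinate dehydrogenase, joins the respiratory chain to the citric acid cycle. Only Sdhc, 1 of its membrane anchors, fell on the NASH diet: it was at 125, 146, 129.7 and 136 CPM in WT and at 110.4, 97.7, 115 and 109.9 in KI, and fell by 0.31 ± 0.09 (adjusted p = 0.0136). The groups did not overlap. The catalytic subunits were not called, with Sdha at 0.14 ± 0.13 (adjusted p = 0.42) and the iron-sulphur subunit Sdhb at -0.21 ± 0.18 (adjusted p = 0.357).

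In complex III, the Rieske iron-sulphur protein Uqcrfs1 (chr13, 30540308 to 30545362) fell most, with 115, 162, 136 and 153 CPM in WT NASH and 82.6, 83.0, 100.5 and 104 in KI NASH. Every KI value was below every WT value, and the fall was 0.62 ± 0.15 (adjusted p = 0.00634). The small subunits Uqcrq and Uqcr10 each fell by 0.40 (adjusted p = 0.0207 and 0.0409). The large core proteins Uqcrc1 and Uqcrc2 had log2 fold changes of -0.03 and -0.05 (adjusted p = 0.874 and 0.709).

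Complex IV, cytochrome c oxidase, had the largest share called: 9 of its 11 tested members that are not tissue isoforms fell. With the length offset described below, Cox6c alone of these 9 was called. Cox6b1 (chr7, 30616861 to 30626151), a subunit on the outer face, had the smallest p: it was at 145, 167, 144 and 138 CPM in WT and at 104, 96.8, 106 and 112 in KI, a fall of 0.51 ± 0.12 (adjusted p = 0.00571) without overlap. Cox5a fell most, by 0.63 ± 0.24, but was close to the threshold (adjusted p = 0.0498): its WT libraries were at 89.9, 127, 128 and 130.1 CPM and its KI libraries at 53.8, 64.1, 89.9 and 98.5, and the groups overlapped. Cox6c fell by 0.45 ± 0.13 (adjusted p = 0.0165) and Cox4i1, the subunit that binds ATP as a regulator, by 0.35 ± 0.13 (adjusted p = 0.043). Cox6a1, Cox7a2, Cox7c and Cox8a fell by 0.45 to 0.51, and Cox7a2l, which joins complexes III and IV into a supercomplex, by 0.21. Cox5b and Cox7b had values of -0.37 and -0.29 (adjusted p = 0.054 and 0.0882).

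Complex V makes ATP in a catalytic head that a ring of c subunits turns. The head subunits Atp5a1 and Atp5b, the most abundant members, had log2 fold changes of 0.05 ± 0.13 and -0.10 ± 0.11 (adjusted p = 0.784 and 0.503). Atp5s, a coupling factor of low level and not a structural subunit, fell most of all members, from 4.84, 3.92, 4.21 and 5.15 CPM in WT to 3.47, 2.46, 1.73 and 2.09 in KI. Its groups did not overlap, and it fell by 0.90 ± 0.23 (adjusted p = 0.00816). The other 4 that fell were the small head subunit Atp5e (by 0.50), the membrane subunits Atp5j2 (0.37) and Atp5l (0.38), and the c ring gene Atp5g2 (0.27). The c ring gene Atp5g1 was at -0.03 (adjusted p = 0.857).

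On the control diet the male livers differed in the same direction with fewer calls. The log2 fold change of KI over WT was negative in 75 of 76 members, with a median of -0.37 against 0.01 over all genes. Of the members 9 fell and none rose, where 1.92% of all genes fell, and 27 of 76 had every KI library below every WT library, as in 9.21% of all genes. The 9 were Ndufa5, Ndufa6, Ndufa7, Ndufc1, Ndufc2, Sdhd, Cox6c, Cox7a2l and Atp5g1. Without the averaged WT library whose sex genes contradict its label, 47 members were called, all lower. The share of all genes called in that fit is not given here, nor in the other fits with a library left out. The count was 2 without WT control replicate 1 and 3 without WT control replicate 2, WT NASH replicate 3, KI control replicates 2, 3 or 4, or KI NASH replicates 1 or 3. The KI-against-WT comparisons of the diets use different libraries and share 1 fit, hence 1 estimate of the spread.

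Ndufa6 fell most of the 9, from 134, 155 and 107 CPM in WT control to 75.7, 84.8, 80.8 and 79.2 in KI control, by 0.72 ± 0.13 (adjusted p = 0.0152). Sdhd, the small membrane anchor of complex II, fell by 0.56 ± 0.11 (adjusted p = 0.0178), from 260.3, 247 and 249.6 CPM in WT to 179, 160.2, 169 and 177 in KI. Neither gene's groups overlapped. Uqcrfs1 was at 163, 133 and 109 CPM in WT and at 94.3, 93.9, 107 and 74.0 in KI, a difference of -0.55 ± 0.16 (adjusted p = 0.0644). In each of these genes but Sdhd the lowest WT value is that of the averaged library.

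**Figure D2:**
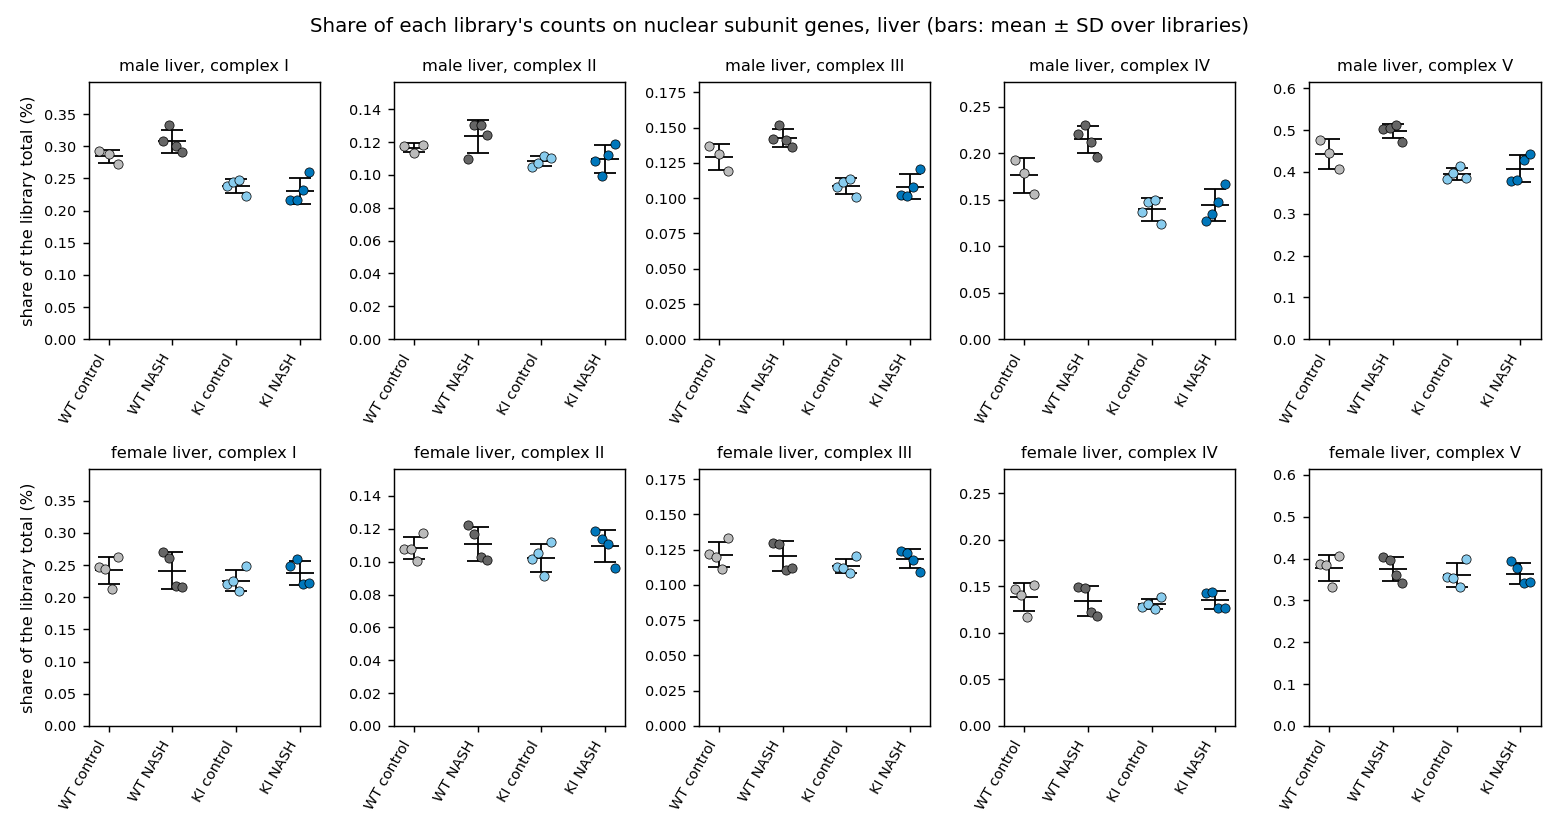
Share of each liver library's total count that fell on the members of each complex (y axis, percent), by group (x axis), males above and females below; points are libraries and bars the mean ± SD. In males every KI library lies below every WT library of the same diet in complexes I, III and IV, in complex II on the control diet only and in complex V on the NASH diet only, while in females the 4 groups overlap.

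As a share of all counts, without any scaling, the members took 1.07 to 1.22% of male WT libraries and 0.943 to 1.04% of male KI libraries on the control diet. On the NASH diet they took 1.22 to 1.35% of WT and 0.932 to 1.11% of KI libraries. Within each diet the KI libraries were below the WT libraries. Complex IV went from 0.215% ± 0.015 (SD, n = 4) in WT NASH to 0.144% ± 0.017 in KI NASH, and complex II from 0.124% ± 0.010 to 0.110% ± 0.008, where the groups overlapped. Beside these shares, hepatocyte markers (13 of 14 in the table) summed on the control diet to 127500 to 204000 CPM (WT) and 112200 to 138500 (KI), and on the NASH diet to 94270 to 102000 (WT) and 102700 to 142900 (KI). Markers of lipid-associated macrophages, 8 of 8 in the table, summed to 259 to 885 CPM in WT NASH and 93.4 to 183 in KI NASH, and 7 of the 8 fell in KI. Of 7 stellate cell markers 6 fell in KI NASH, where 17.4% of all genes fell. No marker of these lists was at 0 in a male liver group, and their part in the members' differences was not tested.

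Gene length moved with the genotype in male liver. Over all genes tested, the log2 fold change of KI over WT rose with union exonic length, with a Spearman correlation across genes of 0.34 on the control diet and 0.34 on the NASH diet; genes are not independent replicates. The members are short, with a median exonic length of 1696.5 bases against 4398 for all genes with a length, and 55 of the 76 lie in the shortest quintile (66 to 2445 bases). In that quintile the median log2 fold change on the NASH diet was -0.29 over all genes and -0.35 over the members, and on the control diet -0.20 and -0.38. On the NASH diet 24 of the 55 members in the shortest quintile fell, where 29.3% of its 2535 other genes did, and on the control diet 7 of 55, where 3.94% did. In female liver the same correlation over all genes was 0.001 on the control diet and -0.033 on the NASH diet. In macrophages it was 0.179 and 0.187 in females and -0.15 and 0.128 in males, which are smaller in size than in male liver. Across the members themselves in male liver, the correlation with length was 0.37 on the NASH diet and 0.23 on the control diet.

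**Figure D3:**
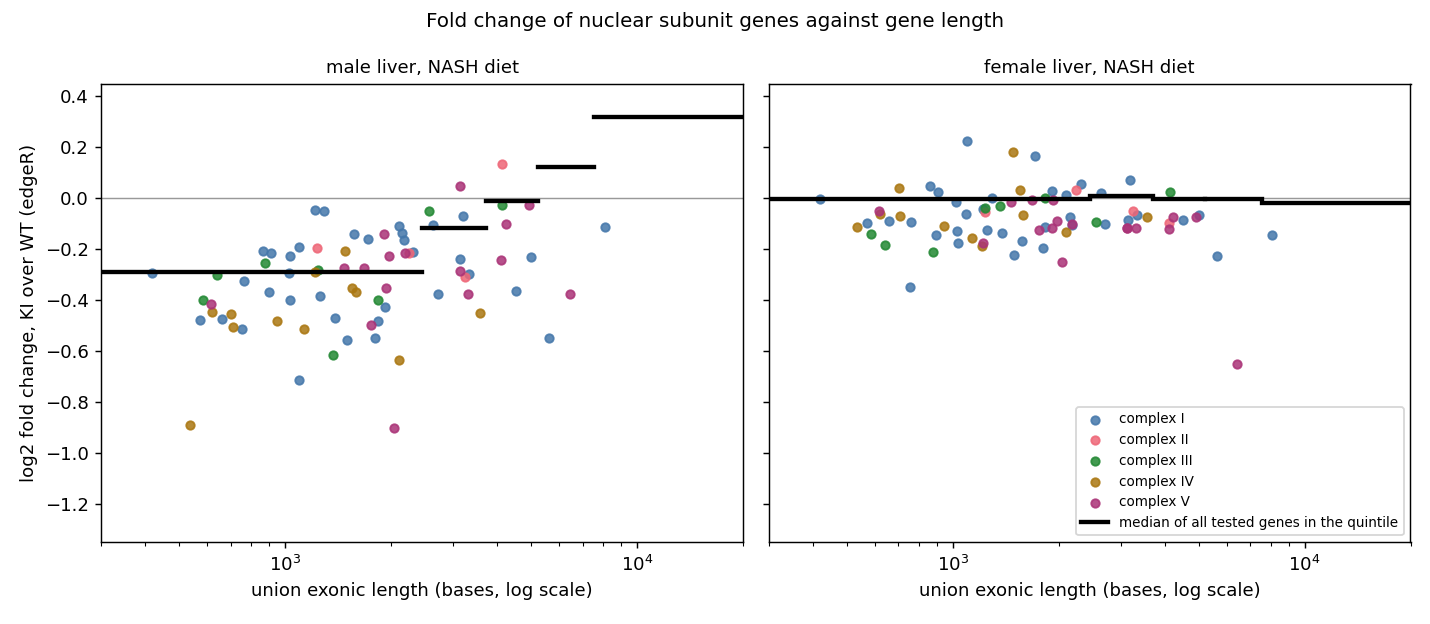
Log2 fold change of KI over WT on the NASH diet (y axis) against union exonic length in bases (x axis, log scale) for each member, coloured by complex, in male and female liver; black lines are the medians of all tested genes in each length quintile. In males the medians climb from -0.29 in the shortest quintile to 0.32 in the longest, and in females they stay between -0.02 and 0.01.

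The trend is a property of single libraries as well. The median log2 deviation of the shortest minus the longest quintile of the other genes was 0.094 to 0.457 in all 7 male WT libraries and -0.333 to -0.116 in all 8 male KI libraries. The members' median deviation was -0.057 to 0.407 in the WT libraries and -0.261 to -0.027 in the KI libraries, where the averaged WT control library, at -0.057, overlaps KI. In female liver the length difference was -0.150 to 0.086 over all 16 libraries with both genotypes intermixed. Since every male KI library lies on the other side of every male WT library, genotype and this library property cannot be told apart in male liver.

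**Figure D4:**
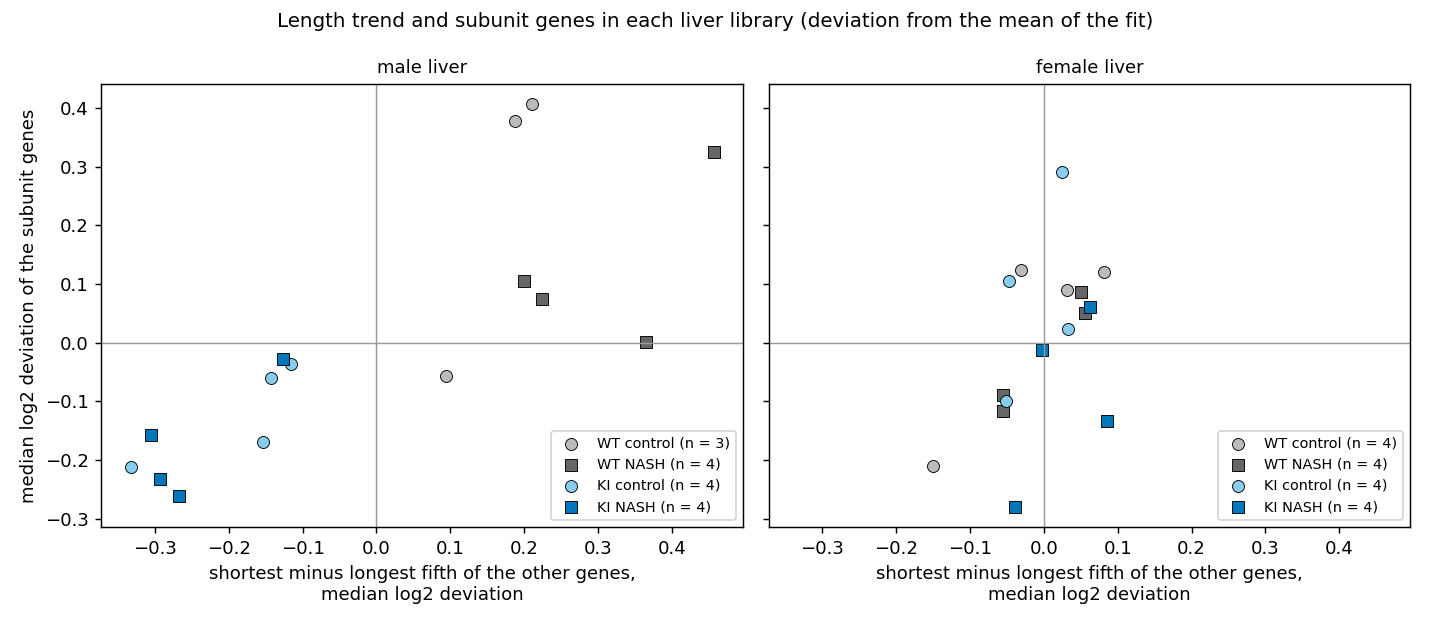
For each liver library, the median log2 deviation of the subunit genes from their mean over the fit (y axis) against the shortest minus the longest quintile of the other genes (x axis), with groups by colour and shape. Male WT libraries lie to the right of 0 (0.094 to 0.457) and male KI libraries to the left (-0.333 to -0.116), while female libraries of both genotypes lie within -0.150 to 0.086.

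When a smooth trend with length was taken out of each library, most of the male calls were lost. On the NASH diet 8 of 76 members were then called, 6 lower and 2 higher, where 30.9% of all genes were called in either direction, and the members' median was -0.06. Those lower were Ndufb2 (-0.63), Ndufb7 (-0.36), Ndufs1 (-0.33), Cox6c (-0.38), Atp5l (-0.51) and Atp5s (-0.67), and those higher were Ndufb10 (0.28) and Ndufs8 (0.27). Of the 32 called without the offset 5 were among them. Uqcrfs1 was at -0.31 ± 0.13 with the offset (adjusted p = 0.0812). On the control diet Ndufa6 alone was called (-0.56 ± 0.12, adjusted p = 0.0464), where 1.29% of all genes were, and the members' median was -0.20. An offset of this kind also takes out any change shared by short genes, whatever its source. It goes by the union of annotated exons, which can be longer than the transcripts present. By that measure Ndufb2, Ndufb7, Cox6c and Atp5l have 5628, 4522, 3567 and 6443 bases. Whether such lengths kept these genes lower with the offset was not tested.

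**Figure D5:**
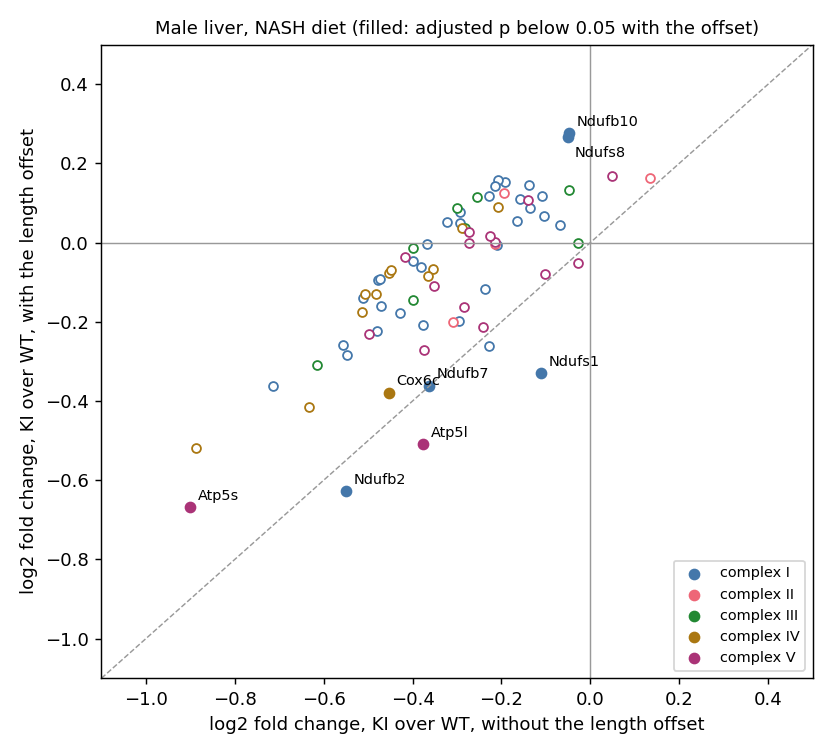
Log2 fold change of KI over WT in male liver on the NASH diet for each tested member without (x axis) and with (y axis) the length offset; the dashed line is equality, and filled, named points passed the adjusted p with the offset. Of the 76 points 71 lie above the line, as the median moves from -0.29 to -0.06. Ndufs1, Ndufb2 and Atp5l, with unions of annotated exons of 8086, 5628 and 6443 bases, lie below it.

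Other short housekeeping genes were read in the same way. Cytosolic ribosomal protein genes, with a median length of 1754.5 bases, had a median log2 fold change in male KI liver of -0.32 on the NASH diet, with 41 of 78 tested lower and 1 higher (17.4% of all genes were lower), and of -0.38 on the control diet, with 19 lower (1.92% of all genes). Mitochondrial ribosomal protein genes had medians of -0.18 and -0.22, with 16 and 4 lower. The members' medians, -0.29 and -0.37 differed from those of the cytosolic ribosomal genes by 0.02 and 0.01, and a difference between these sets was not tested.

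The diet alone gave few calls among the members. In male WT liver 4 fell on the NASH diet and none rose, where 9.74% of all genes fell: Atp5g1 by 0.56 ± 0.11 (adjusted p = 0.00417), Sdhd by 0.38 ± 0.11 (0.0219), Ndufs8 by 0.34 ± 0.11 (0.038) and Ndufb10 by 0.33 ± 0.11 (0.0485). Atp5g1, 1 of 3 genes for the c ring, went from 159.9, 184 and 143 CPM to 108, 115, 105 and 112, without overlap. The members' median was -0.13 against -0.01 over all genes, after TMM scaling. The TMM factors were 0.8648 to 1.0549 in the WT control libraries and 1.0376 to 1.2423 in the WT NASH libraries. Without scaling, the range of the members' shares of counts given above lay higher in WT NASH than in WT control. With the length offset 14 of 76 members fell and none rose, where 11.2% of all genes fell and 21.9% were called in either direction, and Atp5g1 stayed the strongest at -0.60 ± 0.11 (adjusted p = 0.00346). Without the averaged WT control library 11 were called, and the share of all genes in that fit is not given here. The count was 9 without WT NASH replicate 2, 2 without WT NASH replicate 1 or 3, and 1 without WT control replicate 1 or 2. Of the 12 tested hepatocyte markers 8 fell and 1 rose on the NASH diet, and their part was not tested. In male KI liver no member was called for the diet (0.0% of all genes; 1 member at an unadjusted p below 0.05, and none by DESeq2), with a median of -0.06. The diet by genotype interaction called none (1.13% of all genes; 3 at an unadjusted p below 0.05, none by DESeq2), with a median of 0.08.

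In female liver 2 members were called over all comparisons, 1 each in 2 of them. KI against WT on the NASH diet called none (0.0901% of all genes; 2 at an unadjusted p below 0.05, none by DESeq2), with a median of -0.09. On the control diet the median was 0.05, and the coupling factor Atp5s alone fell, from 5.23, 5.04, 5.36 and 5.09 CPM in WT to 4.29, 3.37, 2.58 and 3.02 in KI, where 3.53% of all genes fell. Its groups did not overlap, and the fall was 0.64 ± 0.19 (adjusted p = 0.0456), a call that 12 of the 16 fits with a library left out did not make (adjusted p = 0.0235 to 0.124). Atp5s had also fallen in male KI liver, on the NASH diet. The diet called none in WT females (0.0526% of all genes; 1 at an unadjusted p below 0.05, none by DESeq2). In KI females Ndufa12, an accessory subunit of complex I, fell by 0.34 ± 0.09 (adjusted p = 0.0375), from 28.5, 23.6, 23.6 and 24.9 CPM to 19.97, 20.6, 19.5 and 19.5, where 4.63% of all genes fell. Of the 16 fits with a library left out, 7 did not call Ndufa12 (adjusted p = 0.0246 to 0.1). The members' median for the diet was -0.18 in KI females, with 71 of 77 negative, and -0.05 in WT females, against -0.003 and -0.001 over all genes. The interaction called none (4.77% of all genes; 2 at an unadjusted p below 0.05, none by DESeq2), with a median of -0.14.

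Whether KI against WT on the NASH diet differed between the sexes was tested in a fit of both liver tables, whose annotations are not the same. Of 76 members 3 were higher in the female minus male difference and none lower, where 5.26% of all genes were higher: Uqcrfs1 by 0.57 ± 0.19 (adjusted p = 0.049), Cox6a1 by 0.48 ± 0.16 (0.0472) and Cox7a2l by 0.37 ± 0.11 (0.0244). In females the KI effects of these genes were -0.03, 0.04 and 0.18, and in males -0.62, -0.45 and -0.21. The median difference over the members was 0.24, against 0.01 over all genes. With the length offset none of the 3 was called, at 0.26, 0.13 and 0.07 (adjusted p = 0.348, 0.617 and 0.72), and the members' median difference was -0.01.

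In the sorted macrophages KI against WT called 1 member, in males on the NASH diet. In males none was called on the control diet (0.0% of all genes; none at an unadjusted p below 0.05, none by DESeq2), and on the NASH diet Cox5a alone fell, where 0.506% of all genes fell. Cox5a was at 324, 221, 271, 192 and 194 CPM in the 5 WT NASH libraries and at 180.1, 159.8, 166, 165 and 169 in the 5 KI NASH libraries. The groups did not overlap, and the fall was 0.52 ± 0.13 (adjusted p = 0.0346); the call ended when any of KI NASH replicates 2, 3 and 4, or of WT NASH replicates 1, 2, 3 and 5, was left out (adjusted p = 0.0132 to 0.0986 over the 10 NASH libraries), and 3 members were lower without WT NASH replicate 4. The male members' median was 0.04 on the control diet and -0.14 on the NASH diet, where 74 of 78 were negative and the median over all genes was 0.01. In females none was called on the control diet (4.64% of all genes; 1 at an unadjusted p below 0.05, 1 by DESeq2) or on the NASH diet (0.561%; 4 at an unadjusted p below 0.05, none by DESeq2), with medians of -0.07 and -0.09.

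For the diet, male KI macrophages had 4 members lower, where 8.94% of all genes were, and 1 higher, where 15.1% were. Cox5a fell by 0.52 ± 0.13 (adjusted p = 0.0101), from 246, 265, 237 and 214 CPM on the control diet, and Uqcrb, a small subunit of complex III, by 0.29 ± 0.09 (adjusted p = 0.0298), and Sdhd by 0.28 ± 0.09 (adjusted p = 0.0341). The other 2 are tissue isoforms near the floor of detection: Cox6b2 fell from a mean of 0.617 to 0.212 CPM (45 and 22 summed counts), and the muscle form Cox6a2 rose from 0.0811 to 0.707 CPM (6 and 72 summed counts). The count of 5 became 3 without KI control replicate 1, 2 or 3, and 2 without KI NASH replicate 2. Beside these genes, hepatocyte markers in these groups summed to 190.3 to 280 CPM on the control diet and to 512 to 3179 on the NASH diet, and resident Kupffer cell markers to 41660 to 47220 and 19040 to 38230; their part was not tested. In male WT macrophages the diet called none (8.19% of all genes, 19 members at an unadjusted p below 0.05, none by DESeq2). The members' median was 0.16. Without WT NASH replicate 5 the diet called 5, all higher, and the share of all genes in that fit is not given here. In females it called none in WT (12.9%; 5 at an unadjusted p below 0.05, none by DESeq2) or in KI (2.31%; 2 at an unadjusted p below 0.05, none by DESeq2). The interaction called none in males (0.0%; 4 at an unadjusted p below 0.05, none by DESeq2; median -0.19, with 73 of 78 negative) or in females (0.288%; 0 at an unadjusted p below 0.05, none by DESeq2), nor did the difference between the sexes in KI against WT on that diet (4.37%; 1 at an unadjusted p below 0.05, none by DESeq2).

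Genes that build and regulate the complexes were counted in the same fits, without the length offset. Over all genes in male liver KI against WT went with exonic length, and the part of length in these counts was not tested. In male KI liver on the NASH diet, where 17.4% of all genes fell and 19.6% rose, 12 of 44 tested assembly factors fell and 3 rose: Cox20, a chaperone of complex IV, had the smallest p among those lower (fall of 0.79 ± 0.13, adjusted p = 0.000697), and Cox15, an enzyme of heme A synthesis, among those higher (rise of 0.43 ± 0.14, adjusted p = 0.0258). Of 8 electron carriers and related genes only Ndufab1, the mitochondrial acyl carrier protein, fell (by 0.66 ± 0.20, adjusted p = 0.0188). Ndufab1 is also a subunit of complex I, but its symbol does not match the rule for members. Of 17 tested regulators of mitochondrial biogenesis none fell and 4 rose, a share of risers near that of all genes, with Gabpa, the DNA-binding subunit of GABP, at 0.34 ± 0.09 (adjusted p = 0.00901). Atpif1, the inhibitor of ATP synthase run in reverse, fell by 1.23 ± 0.20 (adjusted p = 0.000514), from a mean of 19.4 ± 5.9 CPM in WT NASH to 8.26 ± 1.27 in KI NASH (SD, n = 4 each).

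Ppargc1a encodes PGC-1alpha, the coactivator that drives mitochondrial biogenesis. In male WT liver it fell on the NASH diet by 1.38 ± 0.41 (adjusted p = 0.0303), from 17.5 ± 5.9 CPM (SD, n = 3) to 6.72 ± 1.61 (n = 4), while 3 of the 17 regulators fell in all and none rose, where 9.74% of all genes fell. KI against WT on the NASH diet stood at 0.97 ± 0.39 (adjusted p = 0.0615). In female liver Ppargc1a was higher in KI on the control diet by 1.52 (adjusted p = 0.0231) and fell on the NASH diet in KI by 1.91 (adjusted p = 0.00899), with an interaction of -2.28 (adjusted p = 0.023). Other genes of the counted lists went the other way in that interaction, with Esrra at 1.03 and Twnk at 1.24 (adjusted p = 0.0113 each). No subunit gene was called in it, and the members' median was -0.14.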

How the data were processed

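Raw counts per gene were deposited by the authors in separate tables (male liver, female liver and macrophages), from TruSeq Stranded poly(A) libraries per the labels' protocols and on mm10 per the submitters' processing notes. For the aligner, the counter, its annotation and its use of strand, nothing is given in the sources used here. Overlapping or near-identical genes may therefore share reads. Liver RNA was made with illustra RNAspin columns and RNA of sorted macrophages with the miRNeasy micro kit of Qiagen, per the labels' protocols.

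Each tissue and sex was fitted on its whole table with edgeR 4.0.16 in R 4.3.3: TMM scaling, filterByExpr (minimum count 10, minimum total 15), 1 mean per group, the quasi-likelihood test and Benjamini-Hochberg adjustment over all genes tested, with a threshold of 0.05. CPM values are TMM-scaled, and shares of counts are of the raw library total. Exonic lengths are unions of exons in GENCODE vM21. The length offset takes a lowess trend (span 0.3) of each library's log2 CPM deviation (prior count 3) on log2 length out of the fit. The scripts were tested on simulated data. DESeq2 1.42.0, no filter, upper-quartile scaling, the length offset, a replicate block, each of 2 versions of 1 library, and fits without each library were the alternatives.

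The members, gene lists and comparisons were chosen with earlier results of these data known. Genes were named per complex as the member called with the smallest p and the one with the largest change, plus fixed catalytic and core subunits; others named are all members called, or were picked after their values were seen. Total counts of 14321776 to 29966174 limit the precision of low members such as Cox6a2.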

Additional observations from a re-analysis of the deposited data

Results flagged for a closer look

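In liver, the KI effect on the NASH diet differed between the sexes for 3 of 76 subunit genes (edgeR's quasi-likelihood interaction over both liver tables). All 3 were higher in the female minus male difference, where 5.26% of all genes were, so their count is not particular to the members. The female minus male difference was 0.567 on the log2 scale for Uqcrfs1, 0.477 for Cox6a1 and 0.371 for Cox7a2l. The tables were made separately, and 1 male WT control library has sex genes that contradict its label. That library is not in the NASH groups compared and enters only through the shared estimate of the spread. Without it 3 members were still called, with its version 3 alone 1 was, and without the filter none was. None of the 3 genes was called with the length offset. No library stood apart from its group in any of 90 tests of the complexes' shares of counts, where chance would mark about 1 in 20. The groups are small, so that such tests do not show the libraries to be alike. The averaged male WT control library had a TMM factor of 1.0549, against 0.8708 and 0.8648 in replicates 1 and 2 of its group.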

How the results depend on the processing

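The male KI-against-WT count on the NASH diet was 32, and 8 with the length offset, 17 with version 3 of the averaged library alone and 14 to 39 with a library left out (14 without WT NASH replicate 2, 15 without KI NASH replicate 2, 16 without KI NASH replicate 1, 19 without KI NASH replicate 3). On the control diet it was 9, and 35 by DESeq2, 3 without the filter, 1 with the offset, 3 with version 3, 29 with version 4, 47 without the library of contradicting sex genes and 2 to 47 with a library left out (13 without WT NASH replicate 1). The WT diet count of male liver was 4, and 7 by DESeq2, 14 with the offset, 11 without that library, 8 with version 4 and 1 to 11 with a library left out.
In female liver the count of 1 for the diet in KI became 0 without the filter and with the replicate block, that of 1 for KI against WT on the control diet 0 without the filter, and both were 0 to 1 with a library left out. In male macrophages the WT diet count of 0 became 18 with the replicate block and 0 to 5 with a library left out (5 without WT NASH replicate 5), the KI diet count of 5 was 2 to 5 and the KI-against-WT count of 1 on the NASH diet 0 to 3. In female macrophages the control-diet KI-against-WT count of 0 became 1 by DESeq2, 1 with the offset and 0 to 1 with a library left out, and the WT diet count of 0 became 1 with the offset. The count of 3 for the sex difference in liver became 4 by DESeq2, 0 without the filter, 0 with the offset and 1 with version 3. Under upper-quartile scaling the members' median reversed in the interaction of male liver (0.084 to -0.052) and of female macrophages (-0.017 to 0.025), and on the NASH diet the male KI-against-WT median moved to -0.45 with that of all genes at -0.18. Same-numbered libraries did not deviate together (median correlations -0.031 to 0.041, above 0.1 in 5 of 24, 7 of 21, 5 of 26 and 8 of 25 pairs), so the replicate block pairs numbers only; it gave 23 and 3 for male KI against WT on the NASH and control diets. Causes of these changes were not tested. Shares of all genes called are given above for some fits with the length offset and for no other alternative. The changes in count are therefore not read as particular to the members.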
